A study of Mus musculus with 64 samples.

Results

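The 10 genes Aif1, Trem2, Tyrobp, Cst7, Itgax, Clec7a, Spp1, Lpl, Cd68 and Axl were followed in 2 brain regions, hippocampus and frontal cortex, of mice carrying the R87C allele of Cyfip2. They are grouped here as genes of activated and phagocytic microglia, though several are also used by other cells, as described below. Trem2, Tyrobp and Aif1 were also present in every wild-type group. All 10 were among the 18432 genes measured, and all 10 passed the filter on low values in every comparison. They were chosen by name, with earlier results of these data known. Heterozygous Cyfip2+/R87C knock-in mice (KI), in which 1 of the Cyfip2 alleles carries the Arg87Cys change in the germ line and therefore in every cell, were compared with wild-type (WT) littermates, both on the C57BL/6N background. Tissue was taken at postnatal week (PWK) 1, 7, 14 or 28 from separate mice, with 4 libraries for each genotype, age and region, which gives 16 groups and 64 libraries. The study describes spasms in newborn KI mice, a juvenile phase without seizures, and seizures in adults with deaths from about PWK 14 on, so KI mice sampled at PWK 28 are survivors.

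Microglia are the resident macrophages of the brain. TREM2 is their surface receptor for lipids and cell debris and signals through the adaptor TYROBP (DAP12), which recruits the kinase SYK. Around damage, plaques or dying cells, microglia are known to raise a TREM2-dependent set of genes for uptake, lysosomal digestion and lipid handling, to which Cst7, Itgax, Clec7a, Spp1, Lpl and Axl belong, while homeostatic genes such as P2ry12 are often lowered. Aif1 encodes the calcium-binding protein IBA1, the common immunostain for microglia, and Cd68 encodes a glycoprotein of phagocyte lysosomes. Several of these genes are also used elsewhere: Lpl, lipoprotein lipase, by neurons, Axl, a TAM-family receptor, by astrocytes and vessels, and Spp1, osteopontin, by neurons and perivascular macrophages. In bulk tissue a change in the number of cells of a type and a change in RNA per cell cannot be told apart.

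The 64 libraries summed to between 29225576 and 32601227 normalized counts after the authors' scaling, and no library was a copy of another (highest correlation between libraries 0.9895). Of the fixed region markers, 5 of 7 hippocampal and 6 of 7 cortical genes separated the regions without overlap at every age. In hippocampus at PWK 14, KI replicate 1 stood apart: its 7 astrocyte markers summed to 325641 against 229885 to 239780.0 in the other KI libraries, its 7 neuron markers to 140231 against 153640.0 to 184741, and Cyfip2 was at 20608 against 25379.8 to 34409. Most of this astrocyte excess lay in the single gene Gfap, whose values are given below. Values of the KI hippocampus group of PWK 14 without replicate 1 are given beside the results. Cyfip2 itself is changed in a codon and not deleted, so its level does not check the genotype labels. The labels do not say whether the 2 regions of a replicate number came from 1 mouse, and the p-values measure the spread between these libraries.

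Promoters are shown for the genes whose results follow and whose start-site windows held a fixed motif upstream of the start. The RefSeq window from 250 bases before to 50 bases after the transcription start (GRCm38.p6) was found for 8 of the 10 genes, and of Lpl and Tyrobp the promoter is not shown. Each line gives the 250 bases before the start, 5′ to 3′ on the gene's strand, with the matched letters in capitals.
Trem2, chr17:48346151-48346400, plus strand: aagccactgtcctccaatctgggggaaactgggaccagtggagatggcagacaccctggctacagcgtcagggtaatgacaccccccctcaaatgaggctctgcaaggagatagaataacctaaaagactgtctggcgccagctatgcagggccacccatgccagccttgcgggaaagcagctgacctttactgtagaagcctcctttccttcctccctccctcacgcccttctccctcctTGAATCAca
Cst7, chr2:150570165-150570414, plus strand: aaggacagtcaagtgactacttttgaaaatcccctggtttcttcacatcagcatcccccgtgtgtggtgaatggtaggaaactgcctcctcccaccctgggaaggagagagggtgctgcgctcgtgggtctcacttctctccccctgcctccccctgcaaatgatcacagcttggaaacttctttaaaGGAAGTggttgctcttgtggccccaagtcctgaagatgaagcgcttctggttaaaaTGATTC
Itgax, chr7:128129300-128129549, plus strand: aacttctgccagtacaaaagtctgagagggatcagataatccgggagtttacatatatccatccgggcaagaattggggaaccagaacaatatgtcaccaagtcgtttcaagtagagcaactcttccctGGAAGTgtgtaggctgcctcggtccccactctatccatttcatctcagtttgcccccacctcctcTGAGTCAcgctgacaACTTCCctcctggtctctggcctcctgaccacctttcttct
Cd68, chr11:69666171-69666420, minus strand: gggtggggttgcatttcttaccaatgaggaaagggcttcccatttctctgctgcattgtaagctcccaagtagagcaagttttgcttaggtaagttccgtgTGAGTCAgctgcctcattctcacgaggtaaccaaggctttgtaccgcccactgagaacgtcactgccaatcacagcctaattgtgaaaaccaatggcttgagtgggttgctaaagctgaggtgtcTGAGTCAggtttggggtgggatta
Spp1, chr5:104434861-104435110, plus strand: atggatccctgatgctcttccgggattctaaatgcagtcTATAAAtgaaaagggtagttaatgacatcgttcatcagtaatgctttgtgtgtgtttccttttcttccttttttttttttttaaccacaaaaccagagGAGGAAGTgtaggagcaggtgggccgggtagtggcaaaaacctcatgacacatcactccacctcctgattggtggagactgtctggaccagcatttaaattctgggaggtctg
The capitals mark TGANTCA (a looser form of the AP-1 motif, with any letter at N), GGAAGT (the core read by ETS factors such as PU.1, the master factor of macrophages), the longer GAGGAAGT that contains it, and TATAAA, all searched on both strands. The usual AP-1 motif has G or C at N. The letters were TGAGTCA in Itgax and Cd68, but TGAATCA in Trem2 and TGATTCA in Cst7. TGANTCA was present in the windows of 4 of 8 genes, Trem2, Cst7, Itgax and Cd68, and in 7.81% of all 32851 promoter windows of the same length. In Trem2 and Cst7 the match lay against the start, from base -9 to -3 and from base -6 to 1 (counted from the start, with no base 0), so that its last letter in Cst7 falls just after the stretch shown. Cd68 held it at -149 to -143 and again at -24 to -18, and Itgax at -56 to -50. GGAAGT was present in 4 of 8 (Cst7, Itgax, Spp1, and Cd68 at bases 12 to 17 after the start) and in 23.8% of all windows, and GAGGAAGT in 1 of 8, Spp1, and in 3.20% of all. TATAAA was found in Spp1 and, after the start, in Clec7a, that is in 2 of 8 against 13.6%, and the E-box CACGTG in 0 of 8 against 7.15%. These matches describe the letters only.

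In WT mice the 10 genes spanned a wide range of levels. Expressed per kilobase of the longest coding transcript, adult hippocampus at PWK 14 was led by Tyrobp (402 ± 63.7 normalized counts per kb, SD, n = 4), Axl (364 ± 19.1) and Lpl (331 ± 28.1), whose ranges each overlapped the next, followed by Trem2 (232 ± 16.2) below all of them. Spp1 (153 ± 47.4), Cd68 (123 ± 11.04) and Aif1 (88.8 ± 18.2) formed a middle tier. Clec7a (4.50 ± 0.604), a pattern receptor for fungal beta-glucan, Cst7 (3.71 ± 2.13), which encodes the lysosomal protease inhibitor cystatin F, and Itgax (3.10 ± 1.69), the CD11c integrin chain, were near the bottom and their ranges overlapped. The same 3 genes were the lowest of the 10 in all 8 WT groups.

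Between PWK 1 and PWK 7 the WT level of the receptor pair rose in both regions. Trem2 went from 131 ± 13.1 to 317 ± 31.8 normalized counts in cortex (log2 fold change 1.27, SE 0.11, adjusted p = 1.52e-08) and from 126 ± 11.3 to 267 ± 9.28 in hippocampus (1.08, SE 0.09, adjusted p = 1.41e-08). Tyrobp rose by 0.73 in cortex and 0.47 in hippocampus on the log2 scale. Lpl moved the other way: it fell from 2373 ± 220.4 to 328 ± 44.6 in cortex (log2 -2.86, SE 0.13, adjusted p = 1.39e-12) and from 8912 ± 587 to 1715 ± 129 in hippocampus (-2.38, SE 0.07, adjusted p = 1.68e-14). Cortical calls were 4 higher (Aif1, Trem2, Tyrobp, Axl) and 2 lower (Itgax, Lpl) of 10, where 33.2% of all genes were called higher and 32.3% lower. Hippocampal calls were 5 higher (Trem2, Tyrobp, Spp1, Cd68, Axl) and 1 lower (Lpl), against 31.8% and 30.4% of all genes. The hippocampal Spp1 call was lost without replicate 1 or 3 of PWK 1 or replicate 3 of PWK 7 (adjusted p 0.0623, 0.0692 and 0.0901), and with all 64 libraries in 1 fit the calls of Spp1 (0.105) and Cd68 (0.0747) in hippocampus and of Itgax in cortex (0.0614) were lost. So large a share of the transcriptome changed over these weeks that the counts alone do not mark the 10 genes.

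From PWK 7 to PWK 28 few of them moved in WT mice. Spp1 was higher at PWK 28 in both regions, at 328 ± 62.9 against 162 ± 29.8 in cortex (log2 1.01, SE 0.29, adjusted p = 0.0196) and at 443 ± 203 against 211 ± 84.7 in hippocampus (1.03, SE 0.32, adjusted p = 0.0320). Lpl rose slightly in cortex (0.38, SE 0.13, adjusted p = 0.0484) and fell in hippocampus (-0.46, SE 0.07, adjusted p = 0.000358). The cortical calls were thus 2 higher and 0 lower, beside 9.82% and 10.7% of all genes, and the hippocampal calls 1 higher and 1 lower, beside 7.54% and 9.93%. When all 64 libraries were fitted together neither Spp1 call remained (adjusted p = 0.133 in cortex and 0.152 in hippocampus), and the cortical Lpl call was lost as well (0.0547). The cortical count fell to 0 without replicate 1 or 3 of PWK 28 and to 1 without replicate 2, 3 or 4 of PWK 7, and the hippocampal count to 1 without replicate 1 or 3 of PWK 28 or replicate 1 or 2 of PWK 7. The hippocampal Spp1 call was lost without any of these 4 libraries or replicate 4 of PWK 7 (adjusted p 0.0652 to 0.108). In cortex that of Spp1 was lost without replicate 1 or 3 of PWK 28 or replicate 1 of PWK 7 (0.0504 to 0.0633), and that of Lpl without replicate 1, 2 or 3 of PWK 28 or replicate 2, 3 or 4 of PWK 7 (0.0668 to 0.148).

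**Figure D1:**
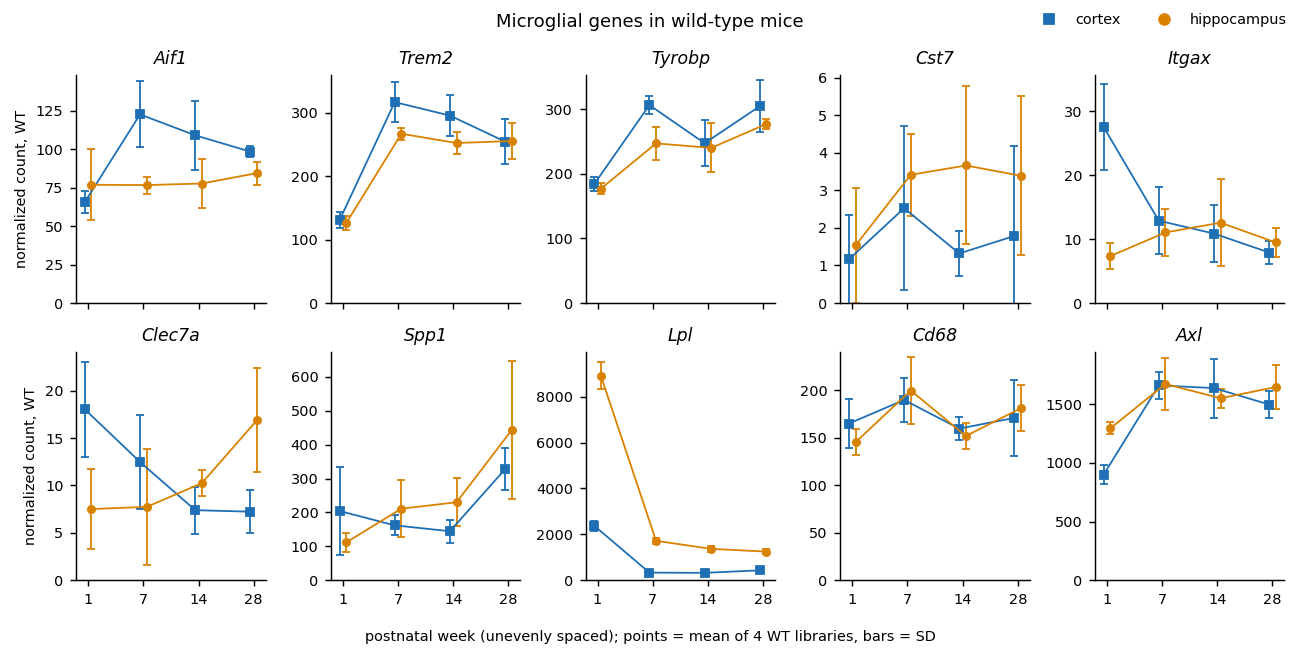
Normalized counts of the 10 genes in WT cortex (blue squares) and WT hippocampus (orange circles) at postnatal weeks 1, 7, 14 and 28 (unevenly spaced); points are means of 4 libraries and bars are SD. Trem2 and Tyrobp rose after PWK 1 in both regions, while Lpl fell from 8912 to 1715 in hippocampus and stayed above cortex at every age.

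The regions differed most in Lpl, which WT hippocampus held at a higher level than WT cortex at all 4 ages, by 1.91, 2.39, 2.11 and 1.55 on the log2 scale from PWK 1 to PWK 28 (adjusted p between 9.08e-09 and 1.76e-07). At PWK 1, Itgax (-1.78, SE 0.28, adjusted p = 0.000543) and Clec7a (-1.23, SE 0.36, adjusted p = 0.0202) were lower in hippocampus and Axl was higher (0.53, SE 0.07, adjusted p = 8.71e-05). At PWK 7, Aif1 (-0.66), Tyrobp (-0.31) and Trem2 (-0.24) were lower in hippocampus, with adjusted p of 0.00429, 0.0171 and 0.0480. The Trem2 call was lost with a pseudocount of 5 (0.0513), with total-sum scaling (0.0883) and with all 64 libraries in 1 fit (0.407), and that last fit lost the calls of Tyrobp at PWK 7 (0.217) and of Clec7a at PWK 1 (0.0888) and PWK 28 (0.118). Clec7a was higher in hippocampus at PWK 28 (1.12, SE 0.34, adjusted p = 0.0219). The deviations of the 2 regions of 1 replicate number correlated above 0.1 in all 4 WT pairs of PWK 1 (0.1018 to 0.2559). KI and WT libraries of 1 number, which come from different mice, correlated at up to 0.3757, so these values do not show pairing. With the replicate number as a block Spp1 was called at PWK 1 as well, lower in hippocampus (-0.73, adjusted p = 0.0197, against 0.113 without the block), which gave 5 calls. The calls in either direction without the block were 4, 4, 1 and 2 of 10 at the successive ages, and the shares over all genes were 34.7%, 40.8%, 34.6% and 37.8%. The Clec7a call at PWK 1 was lost without cortical replicate 4 or hippocampal replicate 1, 2 or 3 (adjusted p 0.0521 to 0.0610), that of Trem2 at PWK 7 without any single library other than cortical replicate 1 (0.0589 to 0.139), and that of Tyrobp without cortical replicate 3 or hippocampal replicate 1, which left 2 calls. At PWK 28 the Clec7a call was lost without cortical replicate 4 or hippocampal replicate 3 or 4 (0.0571 to 0.0703), and at PWK 14 a second gene was called without cortical replicate 3 (Aif1) or hippocampal replicate 4 (Spp1), which gave 2.

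At the early ages none of the 10 genes was called between genotypes. At PWK 1, 0 of 10 were called in cortex, where 0.00546% of all genes were called in either direction (1 gene, and 965 at an unadjusted p under 0.05), and 0 of 10 in hippocampus (0.0109%, 2 genes, 1003 unadjusted). At PWK 7, the counts were 0 of 10 in cortex (0.00545%, 1 gene, 1477 unadjusted) and 0 of 10 in hippocampus (0.0218%, 4 genes, 1144 unadjusted). The median log2 fold change of the 10 genes was -0.09 in cortex and 0.00 in hippocampus at PWK 1, and -0.13 and 0.01 at PWK 7. The largest separations did not pass the correction. Itgax in PWK 1 cortex was at 12.3, 10.4, 8.81 and 13.7 in KI and at 23.6, 20.4, 30.8 and 35.2 in WT, with no overlap (log2 -1.20, SE 0.26, adjusted p = 0.908). Clec7a there was at 8.86, 2.03, 7.78 and 7.56 in KI and at 21.9, 11.6, 16.5 and 22.1 in WT, again without overlap (-1.43, SE 0.41, adjusted p = 0.908). Every WT library was thus above every KI library for these 2 low genes in neonatal cortex. How many of all genes were separated in this way was not counted. In PWK 7 hippocampus Clec7a lay the other way, at 19.7, 21.4, 24.9 and 17.3 in KI and 8.76, 1.77, 4.60 and 15.8 in WT (1.61, SE 0.48, adjusted p = 0.625).

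In hippocampus at PWK 14, most of the 10 genes stood above the WT range in some KI libraries and within it in others. Of the 9 genes other than Lpl, KI replicate 1 exceeded the highest WT library for 9 and replicate 4 for 9, whereas replicate 2 did so for 4 and replicate 3 for 2. Lpl was below the lowest WT library in every KI library. How many of all genes lay outside the WT range in each KI library was not counted. The share of all genes without overlap between the genotypes was not counted either. Of all 10, Cd68 was called higher, which makes 1 of 10 beside 7.64% of all genes, and Lpl lower, 1 of 10 beside 7.95%. The median log2 fold change of the 10 genes was 1.11, against 0.01 over all genes tested. Without KI replicate 1 the counts were again 1 higher and 1 lower, beside 8.98% and 8.43% of all genes, and the median was 0.52 against 0.00 over all genes.

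Cst7 showed the split most clearly. The KI libraries held 304, 10.7, 3.82 and 259.9 normalized counts and the WT libraries 6.02, 4.38, 1.02 and 3.23. Replicates 1 and 4 were thus 83.1 and 71.0 times the WT mean, and replicate 3 lay inside the WT range. The log2 fold change was 3.44 (SE 1.27, adjusted p = 0.0969), and 2.53 (adjusted p = 0.164) without KI replicate 1. Clec7a was at 144, 13.9, 18.5 and 242 in KI and at 12.3, 9.62, 9.95 and 9.16 in WT. All KI libraries were above all WT libraries, but replicates 2 and 3 by little (2.34, SE 0.83, adjusted p = 0.0866; 1.88 and 0.145 without KI replicate 1). Itgax was at 85.5, 15.6, 14.9 and 220.5 in KI and at 13.9, 6.74, 7.91 and 21.6 in WT, and replicates 2 and 3 lay inside the WT range (1.94, SE 0.82, adjusted p = 0.137), and its log2 fold change was 1.65 without KI replicate 1. Without KI replicate 3 Cst7 was called (4.53, adjusted p = 0.0333), and without KI replicate 2 Clec7a was (2.98, adjusted p = 0.0353).

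The receptor and its adaptor were high in the same libraries. Trem2 was at 893, 247, 254 and 696 in KI and at 261, 235, 240.5 and 273 in WT (log2 0.82, SE 0.39, adjusted p = 0.185), and Tyrobp was at 1055, 267, 252 and 637 in KI and at 228, 239.6, 201 and 292 in WT (0.95, SE 0.41, adjusted p = 0.147). For both, KI replicates 2 and 3 lay inside the WT range. Aif1 was at 396, 117, 63.1 and 129 in KI and at 96.2, 84.2, 59.5 and 71.0 in WT (0.86, SE 0.47, adjusted p = 0.240). It was highest by far in replicate 1, and replicates 2 and 4 were above the WT range. Axl, a receptor for phosphatidylserine-bound ligands on dying cells, was at 3621, 1636, 1659 and 1971 in KI and between 1492 and 1672 in WT (0.44, SE 0.22, adjusted p = 0.207). Spp1 rested on a single library: the KI values were 4303, 198, 179.8 and 520.3 and the WT values 215, 269, 299 and 136 (1.27, SE 0.87, adjusted p = 0.350), and without replicate 1 the log2 fold change was 0.26 (adjusted p = 0.678). For Trem2, Tyrobp, Aif1 and Axl it was 0.48, 0.56, 0.36 and 0.17 without that library.

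Cd68 and Lpl differed from WT in every KI library. Cd68 was at 898, 237, 235 and 455 in KI and at 137, 144, 159 and 167 in WT, with no overlap (log2 1.35, SE 0.38, adjusted p = 0.0388), and the difference was 0.95 (adjusted p = 0.0176) without KI replicate 1. Its call was lost without KI replicate 4 (adjusted p = 0.0779) and without any 1 of the WT replicates 1 to 4 (0.101, 0.0972, 0.0747 and 0.0813). Lpl was at 718, 585, 584 and 833 in KI and at 1511, 1247, 1302 and 1395 in WT. All KI values were below all WT values (-1.02, SE 0.12, adjusted p = 0.00145), and the 2 KI libraries with the highest Cst7 were the 2 with the highest Lpl. Leaving out single libraries gave 1 to 3 calls among the 10. With all 64 libraries in 1 fit, where the spread is shared over the groups, 9 of the 10 were called higher and Lpl lower, 10 in all, but that fit also called 16.8% of all genes higher and 16.1% lower.

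**Figure D2:**
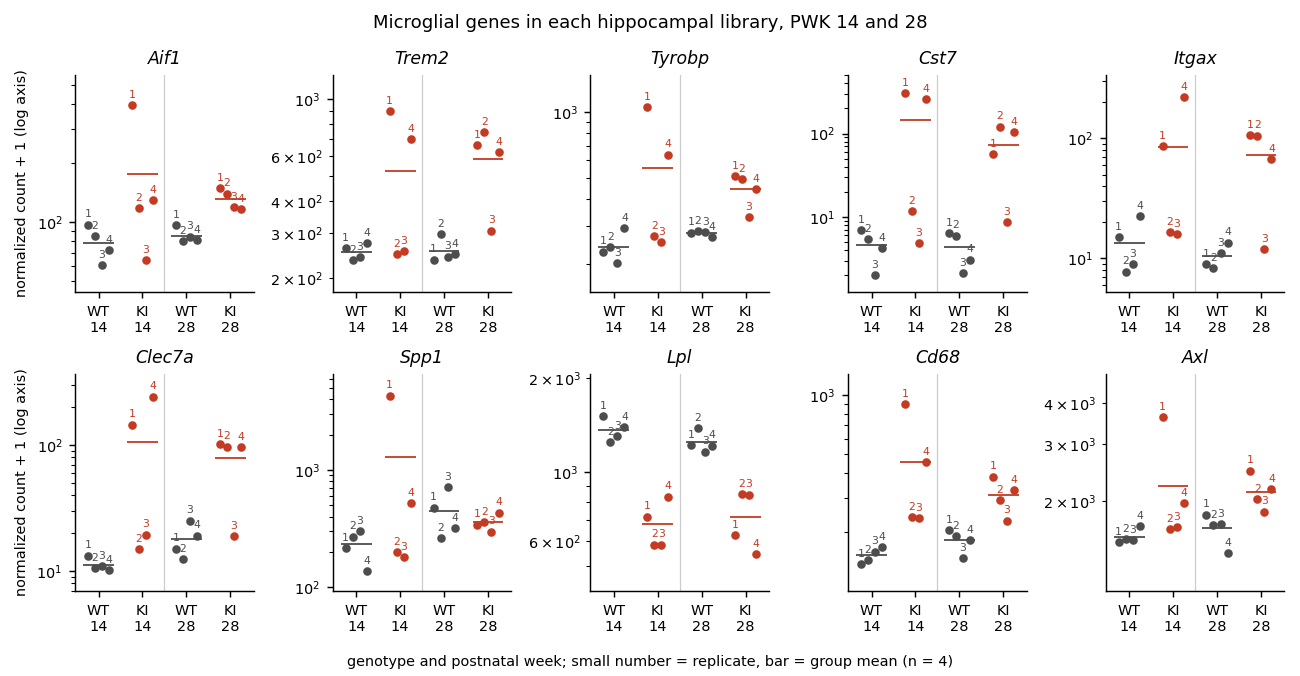
Normalized count plus 1 (log axis) of the 10 genes in every hippocampal library at PWK 14 and PWK 28, WT in grey and KI in red; small numbers are replicates and bars are means of 4. At PWK 14 KI replicates 1 and 4 stand far above the WT libraries for Cst7 (304 and 259.9) while replicates 2 and 3 do not, and Lpl is lower in all KI libraries at both ages.

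By PWK 28 most of the 10 genes separated the genotypes in hippocampus. Higher in KI were 8 of 10 (Aif1, Trem2, Tyrobp, Cst7, Itgax, Clec7a, Cd68 and Axl), where 8.92% of all genes were called higher, and 1 of 10 was lower (Lpl), where 6.91% were. Spp1 did not pass. The median log2 fold change was 0.70, against 0.00 over all genes. Mice of PWK 28 are other animals than those of PWK 14, so equal replicate numbers at the 2 ages mark no relation.

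Cst7 held the largest difference, with 56.0, 120.2, 7.64 and 103 normalized counts in KI and 5.38, 4.98, 1.11 and 2.08 in WT. Every KI library was above every WT library (log2 3.65, SE 0.74, adjusted p = 0.00739), and by fold change Cst7 was gene 15 of the 18389 tested. Itgax was at 106, 105, 10.9 and 66.4 in KI and at 7.98, 7.33, 10.03 and 12.5 in WT (2.41, SE 0.60, adjusted p = 0.0194). Clec7a was at 101, 96.4, 17.9 and 95.2 in KI and at 14.1, 11.4, 24.1 and 18.1 in WT (1.92, SE 0.50, adjusted p = 0.0243). For Itgax and Clec7a, KI replicate 3 lay inside the WT range and the other 3 KI libraries were well above it. Leaving out that library raised the log2 fold changes of Cst7, Itgax and Clec7a to 4.50, 3.15 and 2.51.

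Trem2 was at 657, 742, 306 and 618 in KI and at 236, 297, 242 and 247 in WT (log2 1.11, SE 0.23, adjusted p = 0.00788). Tyrobp was at 507, 493, 328 and 441 in KI and at 278, 283, 280.2 and 266 in WT (0.65, SE 0.13, adjusted p = 0.00576). Replicate 3 was the lowest KI library for both genes, though still above every WT library. Aif1 rose in all 4 KI libraries, at 148, 139, 118 and 116 against 95.4, 79.1, 83.4 and 80.1 (0.61, SE 0.14, adjusted p = 0.0120). Cd68 was at 383, 292, 229 and 328 in KI and 204, 191, 147 and 182 in WT (0.75, SE 0.16, adjusted p = 0.00943), and Axl at 2480.3, 2023, 1855 and 2176 in KI and 1817, 1689.7, 1697 and 1385 in WT (0.37, SE 0.10, adjusted p = 0.0266), both without overlap. Spp1 overlapped widely, at 339.9, 359, 297 and 430.2 in KI and 475, 262, 716 and 319.6 in WT (-0.22, SE 0.26, adjusted p = 0.621). Lpl was again below WT in every KI mouse, at 627, 846, 845 and 545 against 1219.9, 1382, 1162 and 1214 (-0.82, SE 0.13, adjusted p = 0.00218).

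The groups did not overlap for 7 of the 10 genes, 6 higher and Lpl lower. The share of all genes without overlap was not counted, and 5584 of 18389 genes had an unadjusted p under 0.05. Leaving out single libraries gave 6 to 9 calls. Some calls were lost when a library was left out: that of Clec7a (without KI replicate 1, 2 or 4 or WT replicate 1, 2 or 4, adjusted p 0.0510 to 0.0671), of Itgax (without KI replicate 1, 0.0550, or WT replicate 1, 0.0540) and of Axl (without KI replicate 1, KI replicate 4 or WT replicate 4, 0.0628, 0.0537 and 0.0662). That of Aif1 was lost with all 64 libraries in 1 fit (0.0894).

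**Figure D3:**
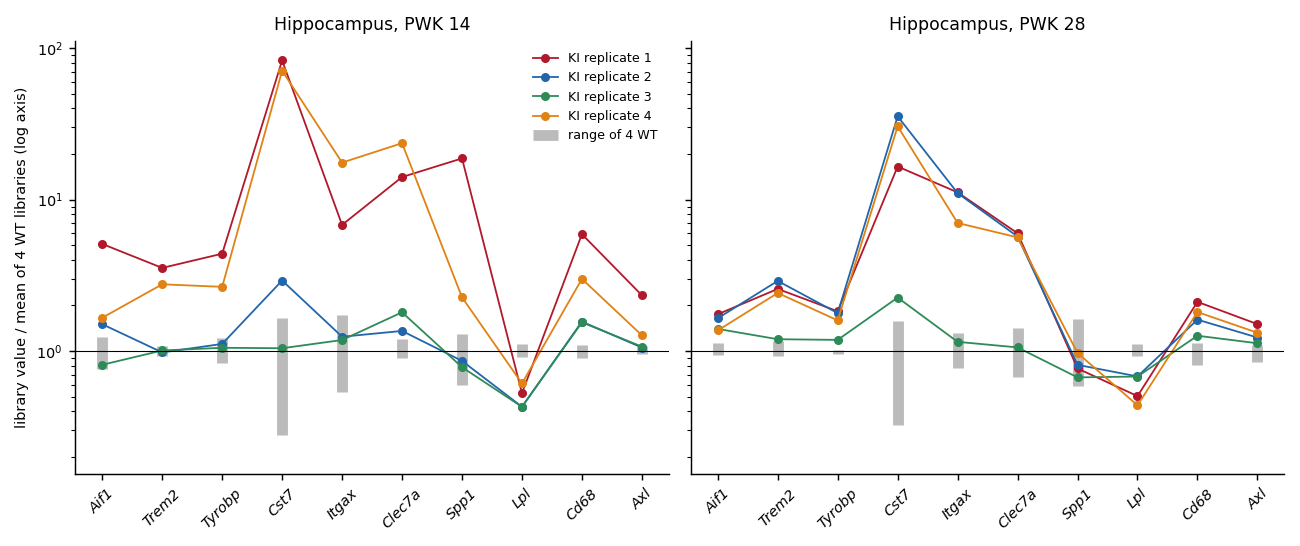
Each KI hippocampal library divided by the mean of the 4 WT libraries of its age (log axis) for the 10 genes at PWK 14 and PWK 28; lines join the genes of 1 library and grey bars are the range of the WT libraries. At PWK 14 replicates 1 and 4 reached 83.1 and 71.0 times the WT mean of Cst7, and at PWK 28 replicates 1, 2 and 4 reached 16.5, 35.5 and 30.5 times it while replicate 3 reached 2.25.

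Frontal cortex was compared at the same ages. At PWK 14, 1 of 10 was called higher (2.48% of all genes) and 0 of 10 lower (2.70%). That gene was Cd68, at 258, 260.4, 236 and 246 in KI and 142, 165, 171 and 160.3 in WT, with no overlap (log2 0.65, SE 0.10, adjusted p = 0.00627), a call that was made whichever library was left out. Spp1 also did not overlap, at 404, 183, 194 and 300.2 in KI and 154, 163, 166 and 93.4 in WT, but did not pass (0.86, SE 0.26, adjusted p = 0.0897). Cst7 stayed between 0.965 and 4.24 in KI and between 0.899 and 2.19 in WT, and Trem2 between 249.8 and 293 in KI and between 267 and 340.2 in WT. For the other 6 genes the groups overlapped as well, among them Aif1 (115 to 167 against 76.1 to 124), Tyrobp (252 to 298 against 195 to 275), Lpl (241 to 383 against 239.6 to 374) and Axl (1404 to 1561 against 1393 to 1975). The share of all genes without overlap was not counted. The median log2 fold change of the 10 was 0.27.

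At PWK 28 the cortical calls were 2 of 10 higher, beside 12.2% of all genes, and 1 of 10 lower, beside 10%. Aif1 was at 225, 185, 301 and 182 in KI and 99.8, 102, 96.9 and 94.5 in WT (log2 1.14, SE 0.17, adjusted p = 0.00126). Spp1 was at 961, 439, 442 and 596 in KI and 381, 239, 362 and 328 in WT (0.84, SE 0.24, adjusted p = 0.0305), a call lost without KI replicate 4 (0.0634), without WT replicate 2, 3 or 4 (0.0855, 0.0521 and 0.0647) and with all 64 libraries in 1 fit (0.174). Lpl was at 225, 229, 127 and 174 in KI and 519, 408, 402 and 379 in WT (-1.20, SE 0.19, adjusted p = 0.00177). None of these 3 overlapped, and the share of all genes without overlap was not counted. Cst7 (12.2, 4.62, 1.11 and 10.7 in KI, and 5.05, 0, 0 and 2.10 in WT) and Itgax (31.0, 11.5, 24.1 and 9.58 against 8.44, 10.1, 7.41 and 5.68) were not called, with adjusted p of 0.153 and 0.0922. Tyrobp was at 281 ± 22.9 in KI and 304 ± 40.2 in WT (-0.11, SE 0.12). Trem2 (278 to 369 against 223 to 295), Cd68 (176 to 260.2 against 126 to 224), Clec7a (6.92 to 18.9 against 4.18 to 9.65) and Axl (1368 to 1719 against 1346 to 1618) overlapped between genotypes, and the median log2 fold change of the 10 was 0.43. Markers of other cells differed between the same cortical libraries. The 7 neuron markers summed to between 227754 and 247929 in KI and between 182231 and 206413 in WT at PWK 28, with no overlap (2 higher and 1 lower), and overlapped at PWK 14. The 7 hippocampal region markers were above every WT library in all KI cortices at PWK 14 (9291 to 10095 against 8166 to 9179), and the 7 cortical region markers were below the lowest WT library in 3 of 4 KI cortices at each age. Vessel and fibroblast markers lay below WT without overlap at PWK 14 (6852 to 8321 against 8458 to 9205) and overlapped at PWK 28. The astrocyte, oligodendrocyte, border macrophage, blood leukocyte and choroid plexus sums overlapped at both ages. The choroid plexus sum of PWK 28 was 21526 in WT replicate 2. It was 330 to 822 in the other WT cortices and 315 to 987 in KI. The part of these cells in the cortical values was not tested.

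**Figure D4:**
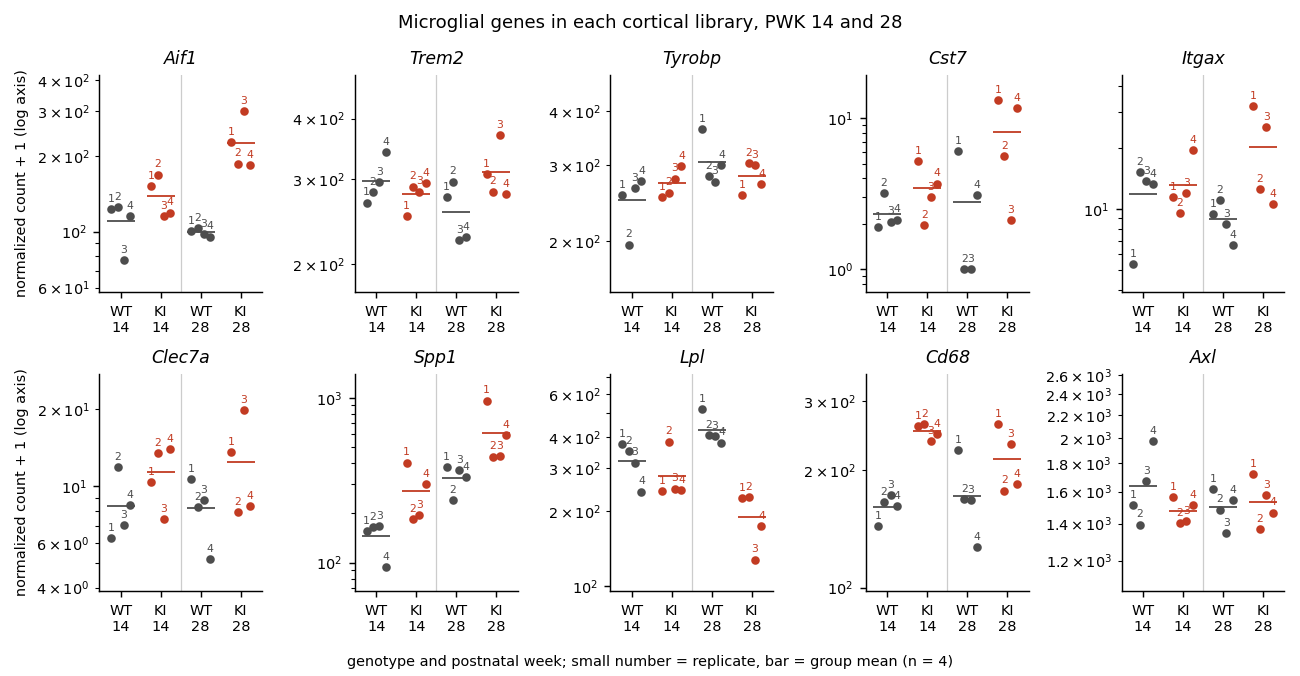
Normalized count plus 1 (log axis) of the 10 genes in every cortical library at PWK 14 and PWK 28, WT in grey and KI in red; small numbers are replicates and bars are means of 4. Aif1 (182 to 301 against 94.5 to 102) and Lpl (127 to 229 against 379 to 519) are separated at PWK 28, and Cd68 at PWK 14.

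Whether the genotype effect differed between regions was tested with an interaction term. At PWK 14, 0 of 10 genes were called, where 2.85% of all genes were (525 genes, 3257 at an unadjusted p under 0.05). The estimates for Cst7 (2.92, SE 1.43, adjusted p = 0.300) and Lpl (-0.81, SE 0.23, adjusted p = 0.0716) were the farthest from 0 in each direction. Without hippocampal KI replicate 1 the count was again 0, Cst7 was at 2.01 (adjusted p = 0.455) and Lpl at -0.84 (0.0692), and the uncalled estimate of Spp1 went from 0.41 to -0.60. Lpl was called without hippocampal KI replicate 4 (-0.91, adjusted p = 0.0359). At PWK 28, 1 of 10 was called, Tyrobp (0.76, SE 0.18, adjusted p = 0.0188), beside 4.57% of all genes: its genotype effect was 0.65 in hippocampus and -0.11 in cortex. Without hippocampal KI replicate 3, 4 genes were called, with Trem2 (1.12, adjusted p = 0.00297), Itgax (2.10, 0.0296) and Clec7a (1.98, 0.0336) added. Tyrobp was not called with all 64 libraries in 1 fit (0.0870). Between PWK 14 and PWK 28 the genotype effect of the 10 genes was not called as different in cortex (0 of 10, and 0% of all genes, with 2770 genes at an unadjusted p under 0.05) or in hippocampus (0 of 10, 0%, 2274 genes). Lpl came nearest in cortex (-0.99, SE 0.28, adjusted p = 0.132) and was called there without cortical KI replicate 2 of PWK 28 (-1.10, adjusted p = 0.0361).

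**Figure D5:**
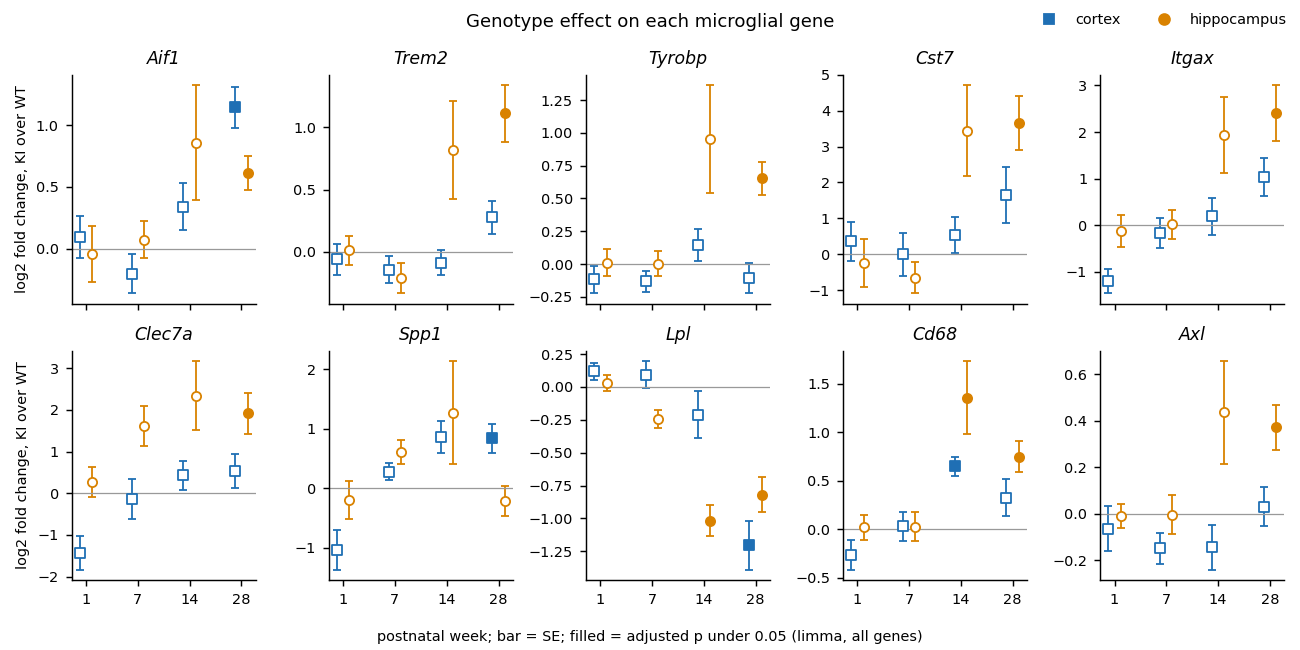
Log2 fold change of KI over WT with its SE for the 10 genes at each postnatal week, in cortex (blue squares) and hippocampus (orange circles); filled symbols have an adjusted p under 0.05. The symbols are open at PWK 1 and PWK 7, and Cst7 reaches 3.65 in hippocampus at PWK 28.

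Further genes of the activated state were taken from a fixed list. The counts of this and the following lists stand beside the shares of all genes called higher and lower, which were 7.64% and 7.95% in hippocampus at PWK 14, 8.92% and 6.91% at PWK 28, 2.48% and 2.70% in cortex at PWK 14, and 12.2% and 10% at PWK 28. Of 24 measured, 7 were higher and 2 lower in hippocampus at PWK 14 and 12 higher and 1 lower at PWK 28, with a median log2 fold change of 0.74 and 0.44. Without hippocampal KI replicate 1 of PWK 14, an alternative added after the data were seen, 10 were higher and 2 lower (median 0.45). The 2 of 24 lower at PWK 14 are close to the share of all genes. In cortex 2 were higher and 0 lower at PWK 14 and 8 higher and 2 lower at PWK 28, with a median of 0.14 and 0.18. Gpnmb, a lysosomal glycoprotein of lipid-laden phagocytes, was at 1979, 386, 438 and 682 in KI and 174, 132, 120.5 and 144 in WT hippocampus at PWK 14 (2.28, SE 0.44, adjusted p = 0.00953, and 1.78 without KI replicate 1) and at 678, 447, 729 and 561 against 111, 168, 124 and 131 at PWK 28 (2.16, SE 0.17, adjusted p = 2.49e-05). It was at least 2.71 times the WT mean in every KI library of both ages, including those in which Cst7 was low. Lgals3, galectin-3, was at 92.0, 25.996, 54.9 and 52.5 in KI cortex at PWK 28 and between 3.94 and 7.21 in WT (3.20, SE 0.38, adjusted p = 0.000533). Igf1 (0.63, SE 0.12, adjusted p = 0.0101, and 0.65 without KI replicate 1) in PWK 14 hippocampus and the lysosomal protease Ctsb (0.37, SE 0.04, adjusted p = 0.000133) at PWK 28 rose without overlap.

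Downstream of TREM2, 1 of 15 signalling genes was higher in hippocampus at PWK 14 (Grb2, an adaptor of receptor signalling in many cell types, 0.48, SE 0.10, adjusted p = 0.0112, and 0.51 without KI replicate 1) and 3 of 15 at PWK 28, with 0 lower at either age. The 1 of 15 at PWK 14 is no larger a share than the 7.64% of all genes. These 3 were Inpp5d (0.45, SE 0.09, adjusted p = 0.00843), which encodes the microglial phosphatase SHIP1, Ptpn6 (0.59, SE 0.17, adjusted p = 0.0355) and Vav1 (0.41, SE 0.12, adjusted p = 0.0439). Their cortical count was 0 of 15 at PWK 14 and 2 of 15 higher at PWK 28 (Adam10, the sheddase of TREM2, 0.33, SE 0.05, and Lat2, 1.13, SE 0.25). Of 17 other phagocytic receptors, ligands and engulfment genes, 5 were higher and 1 lower in hippocampus at PWK 14, beside 7.64% and 7.95% of all genes, and 6 higher and 2 lower at PWK 28, beside 8.92% and 6.91%. Megf11, a gene of this list that is not restricted to microglia, was at 2763, 2107, 2199 and 1323 against 522, 492, 476 and 293 at PWK 14 (2.22, SE 0.24, adjusted p = 0.00106, and 2.07 without KI replicate 1). Cd44, a receptor for hyaluronan and osteopontin that reactive astrocytes also use, was at 2412, 663, 672 and 687 against 95.4, 128, 192 and 42.7 (3.20, SE 0.52, adjusted p = 0.00437, and 2.74 without KI replicate 1). Mfge8, the bridging protein that tags dying cells, fell by 0.87 (adjusted p = 0.00362), and by 0.76 without KI replicate 1. Without KI replicate 1 of PWK 14 the counts were 1 of 15 and 0 lower for signalling, and 5 higher and 1 lower of 17. In cortex the same 17 gave 1 higher and 3 lower at PWK 14 and 4 higher and 4 lower at PWK 28, beside 2.48% and 2.70%, and 12.2% and 10%, of all genes.

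Beside Lpl, 11 lipid and lipase genes were measured. In hippocampus 2 were higher and 0 lower at PWK 14, Lipa, the lysosomal acid lipase (0.55, SE 0.09, adjusted p = 0.00400, and 0.49 without KI replicate 1), and Angptl4, a secreted inhibitor of lipoprotein lipase (1.43, SE 0.33, adjusted p = 0.0196, and 1.10 without that library), and 1 at PWK 28, the cholesterol exporter Abca1 (0.56, SE 0.15, adjusted p = 0.0252). In cortex Angptl4 alone was higher at PWK 14 (1.02, SE 0.19, adjusted p = 0.0134), where Lpl did not pass (-0.21, SE 0.18, adjusted p = 0.561), and 0 of 11 were called at PWK 28, where Lpl fell. Without hippocampal KI replicate 1 the PWK 14 count was again 2 higher and 0 lower.

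Among homeostatic microglia genes none was called lower. Of 13, 0 were called in either direction in hippocampus at PWK 14, with a median log2 fold change of 0.31, and 4 were higher and 0 lower at PWK 28 (median 0.21), among them the fractalkine receptor Cx3cr1 (0.36, SE 0.07, adjusted p = 0.00890) and Csf1r (0.36, SE 0.08, adjusted p = 0.0132). In cortex 0 of 13 were called at either age. Their summed level in PWK 14 hippocampus was 34502, 13024, 12474 and 17647 in KI and 12374, 13057, 12018 and 14481 in WT, so KI replicates 1 and 4 were also the highest for these genes. Without KI replicate 1 the median was 0.01, with 1 of 13 higher and 0 lower. P2ry12, singled out after its values were seen, was at 1329, 1139, 934 and 1211 in KI and 1298, 1193, 1105 and 1455 in WT. The libraries with the most Cst7 thus lay inside its WT range, whereas for the sum of the 13 genes they were above every WT library. P2ry12 in hippocampus at PWK 28 was at 1125, 1186, 1370 and 1288 in KI and 1225, 1040, 1223 and 1272 in WT. At PWK 28 the 13 homeostatic genes summed to between 15542 and 17834 in KI and between 13600 and 14361 in WT hippocampus, with no overlap.

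Markers of other cells that could carry some of the 10 genes were read beside them. The 7 border macrophage genes summed to between 386 and 581 in KI and between 438 and 573 in WT hippocampus at PWK 14, and KI replicate 1, with the most Spp1, Cd68 and Axl, had the lowest sum. At PWK 28 their sums were 578 to 864 in KI and 459 to 934 in WT, and 0 of 7 were called, against 1 higher at PWK 14 (Cd163, 0.91, SE 0.22, adjusted p = 0.0228, and 0.98 without KI replicate 1). The 4 measured blood leukocyte genes summed to 34.0, 9.77, 14.4 and 31.2 in KI hippocampus at PWK 14. In WT they summed to between 10.3 and 20.7, so KI replicates 1 and 4 were above every WT library. At PWK 28 the sums were at most 48.4 in KI and 44.4 in WT. None of these genes was called at either age. Choroid plexus genes varied widely in both genotypes, from 1906 to 99152 in KI and from 2054 to 105181 in WT at PWK 14, and were at 1906 and 87192 in KI replicates 1 and 4. Gfap, the filament of reactive astrocytes, was called higher at both ages, at 131431, 40059, 45879.7 and 47169 against 7502 to 9231 at PWK 14 (2.75, SE 0.32, adjusted p = 0.00129), and was raised in KI replicates 2 and 3 as well (2.36 without replicate 1). The 7 astrocyte markers gave 2 higher at PWK 14 and 4 at PWK 28 with 0 lower, the 7 neuron markers 1 higher and 2 lower and then 3 higher and 2 lower, the 6 oligodendrocyte markers 0 and then 1 higher with 0 lower, the 10 vessel and fibroblast markers 2 higher and 1 lower and then 2 higher and 0 lower, and the 5 choroid plexus markers 0 at either age. The astrocyte sums of hippocampus did not overlap at either age. They were 229885 to 325641 in KI and 158032 to 185631 in WT at PWK 14, and 217447 to 251123 against 157775 to 168697 at PWK 28. Vessel and fibroblast sums lay above WT without overlap at PWK 14 (10500 to 14642 against 9595 to 10291) and overlapped at PWK 28. The neuron and oligodendrocyte sums overlapped at both ages. Without KI replicate 1 the PWK 14 counts were 4 higher and 0 lower for astrocytes, the same as at PWK 28, 2 higher and 2 lower for neurons, 3 higher and 1 lower for vessels and fibroblasts, and 0 for oligodendrocytes and choroid plexus. The part of these cell types in the hippocampal values was not tested.

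Across the 16 group means the genes closest to each of the 10 were named by Pearson's r of the mean log2 value, as a description over groups that share ages and regions. Trem2 ran close to Lair1 (0.980), and Tyrobp was closest to C1qc (0.985), a complement C1q chain made by microglia, and Cd53 (0.974). Cd68 ran with Ly86 (0.921) and Olfml3 (0.910), and Aif1 with Ptgs1 (0.970) and AC166172.4 (0.966). Clec7a and Itgax were both closest to Tbxas1 (0.879 and 0.875), followed by Tlr2 (0.872) and Sdcbp2 (0.868). Cst7 ran with Otop1 (0.970) and Sdcbp2 (0.920), Axl with Hepacam (0.978) and Wipf1 (0.976), and Spp1 with Fam135b (0.924) and Sucla2 (0.923). Lpl ran with Efnb3 (0.984) and Ccdc34 (0.984). Among the 10 themselves, Trem2 and Tyrobp had the highest r (0.950), and Lpl was negative with each of the other 9, from -0.798 with Aif1 to -0.150 with Clec7a.

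All 10 genes were read at a single locus each on GRCm38. Trem2 (chromosome 17, 48346401 to 48354147, plus strand) and Aif1 (chromosome 17, 35170991 to 35176068, minus) share a chromosome, as do Tyrobp (chromosome 7, 30413760 to 30417585, plus), Itgax (128129547 to 128150657, plus) and Axl (25757273 to 25788705, minus) on chromosome 7. Cst7 lies on chromosome 2 (150570415 to 150578944, plus), Spp1 on 5 (104435118 to 104441050, plus), Clec7a on 6 (129461591 to 129472779, minus), Lpl on 8 (68880491 to 68907448, plus) and Cd68 on 11 (69664213 to 69666153, minus). None overlapped another gene of the table; Spp1 shares its locus with Gm42793, annotated on the same strand and not in the table. Clec7a is annotated in GENCODE vM21 as a polymorphic pseudogene rather than a protein-coding gene.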

How the data were processed

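RNA from frontal cortex and hippocampus was sequenced by the authors. Whether each library came from 1 mouse is not stated. The study used both sexes, and the sample titles give no sex. The submitters' processing notes give Salmon 0.11.2, DESeq2 1.19.11 and R 3.6.0, while the study's methods name other versions of each. Per the labels and the methods, reads were quantified against the mouse genome GRCm38 with Salmon, summed per gene and normalized by DESeq2 size factors. The values deposited by the authors are therefore a signal, DESeq2-normalized counts, of 18432 genes in 64 libraries. Raw counts are not used here, so the depth of a library is unknown and no counting interval is given, and a size factor scales every gene of a library alike. Gene symbols were taken from GENCODE vM21 (18420 IDs matched, 12 did not).

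Values were tested as log2(value + 1) with limma 3.58.1 (trend, R 4.3.3) across all genes with a mean of at least 1 in the libraries compared, with 2-sided p-values and Benjamini-Hochberg adjustment over all genes tested; a gene was called below 0.05. Fold changes of low genes are pulled towards 0 by the added 1. KI was compared with WT within each region and age on those 8 libraries, and WT ages were fitted per region. Interactions used the 16 libraries concerned. Sums and means ± SD are of normalized counts, and promoter windows are from RefSeq. The script was tested on simulated data. Alternatives were a pseudocount of 5, a filter at a mean value of 10, no filter, total-sum scaling, a robust prior, all 64 libraries in 1 fit, the replicate number as a block, and leaving out each library. Deviations of the 2 regions of 1 number correlated above 0.1 in all 4 pairs only for WT of PWK 1 and KI of PWK 28, which does not show that a number marks 1 mouse. Genes under the filter of 10 were not tested in that run. The lists without 1 library were added after seeing the data. The 10 genes and the other gene lists were chosen with earlier results of these data known. Of 149 list genes 140 were in the table. Outside the 10, genes are named by a rule: up to 3 per list with the smallest p in the comparison described, or the 2 with the highest correlation (mean of at least 10). P2ry12 is the exception. A gene that this rule names is not reported here.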

Additional observations from a re-analysis of the deposited data

Results flagged for a closer look

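Among 160 sets of 4 libraries (10 genes in 16 groups), 12 held a library far from the other 3 by Dixon's criterion, and chance alone marks about 1 in 20. In hippocampus at PWK 14, KI replicate 1 was such a library for Spp1 (4303 normalized counts against 179.8 to 520.3) and for Axl (3621 against 1636 to 1971). At PWK 28, hippocampal KI replicate 3 was apart for Clec7a, at 17.9 against 95.2 to 101. In cortex, Spp1 had a library apart in WT replicate 4 of PWK 14 (93.4 against 154 to 166), WT replicate 4 of PWK 1 (397 against 121 to 168) and WT replicate 1 of PWK 7 (117 against 173 to 180.0). Lpl was at 383 against 241 to 247 in cortical KI replicate 2 of PWK 14. Cd68 was at 126 against 174 to 183 in cortical WT replicate 2 of PWK 1 and at 263 against 168 to 178 in cortical KI replicate 2 of PWK 7. Cst7 was at 5.75 against 1.193 to 1.94 in cortical WT replicate 3 of PWK 7. Aif1 was at 102 against 62.2 to 66.1 in hippocampal KI replicate 3 of PWK 1, and Clec7a at 13.9 against 5.13 to 5.79 in hippocampal WT replicate 4 of PWK 1. The genotype effect on Tyrobp at PWK 28 differed between regions (0.76 on the log2 scale, hippocampus minus cortex). No explanation of these values was tested.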

How the results depend on the processing

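No result that was called changed direction under any alternative run. Fitting all 64 libraries together moved the most counts of called genes among the 10: to 10 in hippocampus at PWK 14 between genotypes (from 2), to 1 for the genotype-by-age term in cortex (from 0), to 4 for the genotype-by-region term at PWK 14 (from 0) and 0 at PWK 28 (from 1), to 0 in cortex and 1 in hippocampus for WT PWK 28 against PWK 7 (from 2 and 2), and to 2 at PWK 7 and 1 at PWK 28 for WT region (from 4 and 2). By construction that fit shares 1 spread over all groups. For WT PWK 28 against PWK 7, the count was 1 in cortex without the filter or with a robust prior, and 1 in hippocampus with a robust prior. The cause of these shifts was not tested. With the replicate number as a block, the genotype-by-region count at PWK 28 was 2, with Spp1 added (-1.05, adjusted p = 0.0419), and the WT region count at PWK 14 was 3. In hippocampus at PWK 14 the block took the Cd68 genotype call away (adjusted p = 0.0544) and added that of Itgax (0.0465), and for WT region at PWK 7 that of Trem2 was lost (0.0870). The labels do not say what a number marks. Deviations of the 2 regions of 1 number correlated above 0.1 in 17 of 32 pairs (mean 0.14), in 4 of 4 for WT of PWK 1 and KI of PWK 28 and in 0 of 4 for WT of PWK 7 and PWK 28, and those of KI and WT in 10 of 32 (mean 0.026). Leaving out single libraries gave counts of 1 to 3 in hippocampus at PWK 14 between genotypes, 0 to 1 for the genotype-by-age term in cortex, 0 to 1 and 1 to 4 for the genotype-by-region term at PWK 14 and PWK 28, 0 to 2 in cortex and 1 to 2 in hippocampus for WT PWK 28 against PWK 7, and 2 to 4, 1 to 2 and 1 to 2 for WT region at PWK 7, 14 and 28. Cst7, Itgax and Clec7a lie near the low end of the table in WT, and the unknown depth limits how finely their WT levels can be read.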
